A study of Mus musculus with 16 samples.

Results

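Glucocorticoids act on skeletal muscle through the glucocorticoid receptor, and 8 genes of this pathway were followed in gastrocnemius, a muscle of the calf. They were chosen by name as the receptor (Nr3c1), the enzyme that regenerates active glucocorticoid inside cells (Hsd11b1), and 6 genes known to be induced by the receptor (Fkbp5, Tsc22d3, Klf9, Klf15, Sgk1, and Zbtb16). All 8 were among the 21923 genes of the deposited table, and all 8 passed the filter on low counts in every comparison. In the resting cell the receptor is held in the cytoplasm by HSP90 and its co-chaperones. On binding the hormone it moves to the nucleus, where it binds DNA at paired, inverted half-sites and changes the transcription of nearby genes. In muscle, sustained glucocorticoid exposure is known for protein breakdown and for wasting.

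The muscles of 16 mice were collected on day 30, and each gave a single library. The mice formed 4 groups of 4, called NOR, CAC, AM, and KD. In NOR, the tumor cells were replaced by PBS, whereas CAC mice carried untreated subcutaneous tumors. AM mice carried tumors and received 2 mg/kg amiloride, a diuretic that the study used as an inhibitor of exosome release, every day from day 9, and KD mice carried tumors of Rab27 knock-down cells, made with shRNAs against Rab27a and Rab27b. The knock-down was therefore in the tumor cells and not in the muscle, and the mice of the other groups received PBS injections over the same days. In every group, replicates 1 and 2 were labelled C57BL/6, with Lewis lung carcinoma (LLC) cells in the tumor groups, and replicates 3 and 4 were labelled BALB/c (spelled BABL/c in the labels), with CT26 colon carcinoma cells. Strain and tumor line thus change together. The mice were 6–8 weeks old when purchased, per the study's methods. No group of tumor-free mice given amiloride was sequenced, so that the effect of the drug alone on these genes was not measured.

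Values are reads per gene as CPM (counts scaled to 1 common library total, with TMM factors over the 16 libraries), and a gene was called when its Benjamini-Hochberg FDR over all genes tested was at most 0.05 and it had changed at least 1.5-fold in either direction. Tests between 2 groups used edgeR's quasi-likelihood F test on their 8 libraries. Beside it, single genes carry an exact permutation test of their CPM, which was two-sided. With 4 mice against 4 the smallest p it can give is 0.0286, which is reached when the groups do not overlap.

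Libraries held 35913190 to 61032708 counted reads, and muscle fibre markers were high in all of them (72900 to 210000 CPM, summed over 8 genes). Other cell types varied between libraries. Markers of B and T lymphocytes summed to under 5 CPM in 5 libraries (NOR replicate 1, CAC replicates 1 and 4, KD replicates 2 and 3) and to 29.1 CPM or more in the other 11. Summed neutrophil markers were 102 to 247 CPM in CAC against 3.86 to 33.2 CPM in NOR, with 5 of 6 markers not overlapping between the groups (12.5% of all genes were higher in this way). Summed fibroblast markers were 816 to 1380 CPM in CAC against 2340 to 2940 CPM in NOR, with 4 of 6 not overlapping (10.8% of all genes were lower in this way). Of 6 endothelial markers, 2 (Pecam1 and Flt1) were higher in CAC without overlap, whereas Kdr was lower on average and the sums overlapped (1260 to 1750 CPM in CAC, 1040 to 1470 CPM in NOR). Of the 8 muscle markers, 3 were lower in CAC without overlap. No marker of these lists was at 0 in all libraries. Furthermore, 4 libraries (CAC replicate 4, AM replicates 1 and 3, KD replicate 1) stood apart by genes that were near on or off. Nnt was at 44 to 112 CPM in these and at 5.73 to 21.5 CPM in the other 12, whereas Oas1a was at 0 to 0.316 CPM and at 2.14 to 10.9 CPM. These 4 libraries came from both labelled strains, so that results split by labelled strain cannot be tied to the strain itself. KD replicate 3 had no reads of 4 Y-linked genes, and the labels' protocol names BALB/c mice of both sexes, although the study's methods speak of male mice where they give the source.

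The receptor binds a pair of inverted half-sites spaced by 3 bases. Its core was searched as GNACANNNTGTNC on both strands in RefSeq promoters (GRCm38.p6, from 250 bases before to 50 after each start). It was present in 156 of 32851 promoters (0.475%), and a longer form that contains it, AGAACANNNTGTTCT, in 3 (0.00913%). Promoters were at hand for 6 of the 8 genes (13 promoters), with no entry for Nr3c1 and Zbtb16. Of the 13, 1 held the core, namely 1 of the 6 promoters of Sgk1. Among 30 other genes known to be induced by glucocorticoids (32 promoters of 26 genes), the promoters of Mt1 and Trim63 held it. The 3 matches are shown with their flanks, all on the + strand and with the core in capitals, because they are the only ones found among these genes.
Sgk1, chr10:21993676-21993740: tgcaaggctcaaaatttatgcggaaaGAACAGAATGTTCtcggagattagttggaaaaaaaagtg
Mt1, chr8:94178969-94179033: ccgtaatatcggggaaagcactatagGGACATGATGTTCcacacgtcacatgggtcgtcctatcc
Trim63, chr4:134314886-134314950: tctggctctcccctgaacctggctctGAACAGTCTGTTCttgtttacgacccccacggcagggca
The Sgk1 match started 188 bases before the start site and was also a match of the longer form, and it lay in an intron of 5 longer Sgk1 transcripts. The Mt1 and Trim63 matches started 94 and 208 bases before the start. A match is a description of the letters, and no binding was measured.

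Nr3c1 encodes the glucocorticoid receptor, a protein-coding gene (ENSMUSG00000024431) of chromosome 18. Its level was 107, 109, 116, and 70.9 CPM in NOR replicates 1 to 4. In CAC it was 117, 113, 80.6, and 85.1 CPM, in AM 58.7, 92.3, 110, and 104 CPM, and in KD 88.9, 87.6, 124, and 118 CPM. The groups overlapped throughout. Nr3c1 was not called in CAC vs. NOR, with a log2 fold change of -0.03 (SE 0.187, 95% interval -0.46 to 0.39, edgeR FDR = 0.936), whose sign turned under total-count scaling (0.08). In AM vs. CAC the value was -0.12 (interval -0.58 to 0.35, edgeR FDR = 0.795), and in KD vs. CAC it was 0.07 (interval -0.33 to 0.48, edgeR FDR = 0.946). None of these intervals reached a doubling or a halving of the receptor's RNA.

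Hsd11b1 (chr1:193221634-193264075, minus strand, GRCm38) encodes the enzyme that turns the inactive 11-keto steroid back into corticosterone. It measured 17.4, 23.1, 18.6, and 40.9 CPM in NOR and 20.5, 34.8, 55.3, and 22.8 CPM in CAC. AM mice had 20.4, 28.1, 16.7, and 18.3 CPM, and KD mice 28.9, 17.1, 6.75, and 27.9 CPM. CAC replicate 3 was highest and KD replicate 3 lowest, and the groups overlapped. CAC differed from NOR by a log2 fold change of 0.43 (SE 0.38, interval -0.44 to 1.3, edgeR FDR = 0.51), which was -0.69 in AM vs. CAC (SE 0.335, edgeR FDR = 0.281), and -0.73 in KD vs. CAC (SE 0.482, edgeR FDR = 0.627). The difference between CAC and NOR was 0.06 without CAC replicate 3 and 0.76 without NOR replicate 4, and that between AM and CAC was -0.31 without CAC replicate 3. With the lymphocyte markers as a covariate, Hsd11b1 was called in AM vs. CAC (-0.99, edgeR FDR = 0.0498). With the adipocyte markers as a covariate it was not called, with 0.15 in CAC vs. NOR (edgeR FDR = 0.665), -0.49 in AM vs. CAC (edgeR FDR = 0.34), and -1.22 in KD vs. CAC (edgeR FDR = 0.206). Without Car3 in the sum these were 0.12, -0.62, and -0.70 (edgeR FDR = 0.756, 0.143, and 0.342). Hsd11b1 is also known as an adipose gene, and the 8 adipocyte markers summed to 7370 CPM or more in 5 libraries, in which it measured 40.9 (NOR replicate 4), 55.3 (CAC replicate 3), 28.1 (AM replicate 2), 28.9 (KD replicate 1), and 27.9 CPM (KD replicate 4). In the other 11 libraries the markers summed to 2800 to 5120 CPM, and Hsd11b1 ranged from 6.75 to 34.8 CPM. Car3, one of the 8 markers, made up 1470 to 4310 CPM of the sums, and without it the same 5 libraries were again the highest (3400 to 5000 CPM against 699 to 2670 CPM). In these whole-muscle samples, a different share of a cell type and a different RNA level per cell cannot be told apart.

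**Figure D1:**
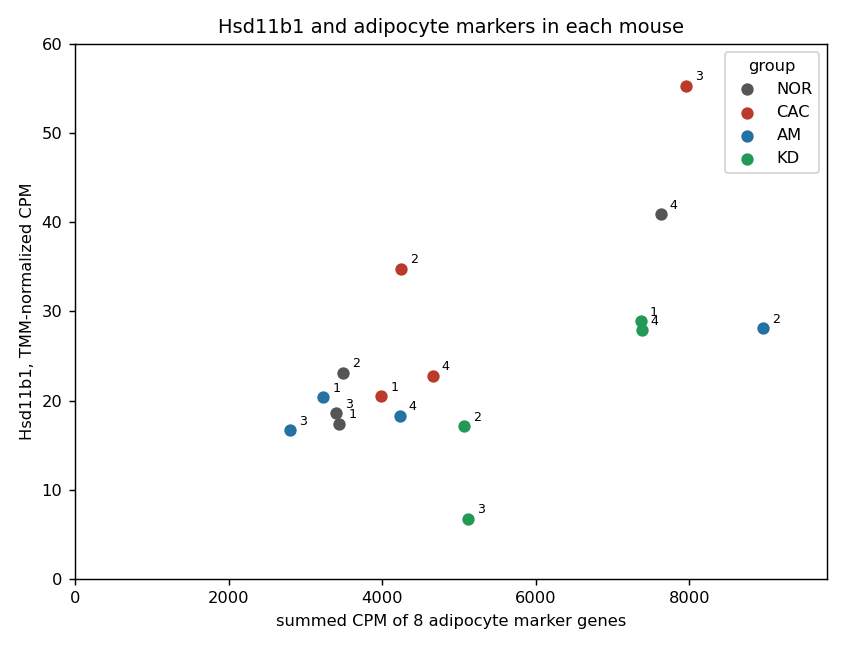
Hsd11b1 (TMM-normalized CPM) is plotted against the summed CPM of 8 adipocyte markers, 1 point per mouse with its replicate number, colored by group. The 5 mice at 7370 CPM or more of the markers had 27.9 to 55.3 CPM of Hsd11b1, and the highest of the other 11 was CAC replicate 2 with 34.8 CPM.

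Cachexia was first compared with the normal muscle (CAC vs. NOR). Of the 8 genes, 3 were upregulated, namely Fkbp5, Tsc22d3, and Klf15, and none was downregulated. Among all 14666 genes tested, 4.32% were called up and 5.13% down. Zbtb16, Sgk1, and Klf9 were also higher on average but did not pass the FDR limit by edgeR with TMM scaling. Under total-count scaling all 3 were called (edgeR FDR = 0.0419, 0.0346, and 0.0285), beside 959 genes up and 619 down. DESeq2 called Zbtb16 as well, beside 5.75% of all genes called up and 7.41% down. The median log2 fold change of the 8 genes was 0.75, against 0.01 for all genes.

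Fkbp5 (chr17:28399094-28517527, minus strand) encodes FKBP51, a co-chaperone that lowers the hormone affinity of the receptor and is induced by it. NOR mice had 50.7, 48.9, 29.3, and 126 CPM, and CAC mice 306, 315, 161, and 213 CPM. Every CAC mouse was above every NOR mouse. The means were 63.8 ± 42.9 and 249 ± 74.4 CPM (SD, n = 4 each), and the gene was upregulated by 1.96 on the log2 scale, or 3.89-fold (SE 0.437, edgeR FDR = 0.0229, exact permutation p = 0.0286).

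Tsc22d3 (chrX:140539528-140600659, minus strand) encodes GILZ, a leucine zipper protein through which glucocorticoids dampen inflammatory signaling. Its level was 167, 157, 197, and 347 CPM in NOR and 692, 603, 361, and 392 CPM in CAC. The groups did not overlap, although NOR replicate 4 came close to the lowest CAC mouse. The log2 fold change was 1.24 (SE 0.303, edgeR FDR = 0.0312, exact permutation p = 0.0286).

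Klf15 (chr6:90462576-90475238, plus strand) encodes a Krüppel-like transcription factor known for turning on amino acid breakdown in muscle. NOR mice had 58.4, 33.4, 56.5, and 86.7 CPM, and CAC mice 139, 111, 98, and 105 CPM. Again all CAC mice were above all NOR mice. It was upregulated by 0.95 on the log2 scale (1.93-fold, SE 0.257, edgeR FDR = 0.0438, exact permutation p = 0.0286).

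Zbtb16 (chr9:48654297-48836222, minus strand) encodes PLZF, a zinc finger transcription factor that responds to glucocorticoids in many tissues. It measured 73.2, 54.9, 34.4, and 112 CPM in NOR and 177, 119, 115, and 190 CPM in CAC. These groups did not overlap either, and the means were 68.5 ± 32.8 and 150 ± 39 CPM (SD, n = 4 each). The log2 fold change of 1.13 (SE 0.343) had an edgeR FDR of 0.0628 and an exact permutation p of 0.0286. Zbtb16 was called by DESeq2 (1.12, adjusted p = 0.00762) and under total-count scaling (1.24, edgeR FDR = 0.0419). Thus 4 of the 8 genes did not overlap between the groups with CAC higher, as was the case for 12.5% of all genes tested.

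Sgk1 (chr10:21882184-21999903, plus strand), whose promoter match is printed above, encodes a kinase that acts on ion channels and FoxO factors. Its levels were 207, 246, 241, and 301 CPM in NOR and 467, 333, 276, and 390 CPM in CAC. CAC replicate 3 lay below NOR replicate 4. The log2 fold change was 0.56 (SE 0.17, edgeR FDR = 0.0624, exact permutation p = 0.0571).

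Klf9 (chr19:23141226-23168134, plus strand) encodes a Krüppel-like repressor that responds quickly to the hormone. NOR mice had 168, 156, 171, and 226 CPM, and CAC mice 299, 242, 207, and 269 CPM. Only the lowest CAC mouse and the highest NOR mouse overlapped. The log2 fold change was 0.49 (SE 0.148, edgeR FDR = 0.0613, exact permutation p = 0.0571). At an unadjusted p under 0.05, all 6 response genes were higher in CAC, beside 15.5% of all genes.

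**Figure D2:**
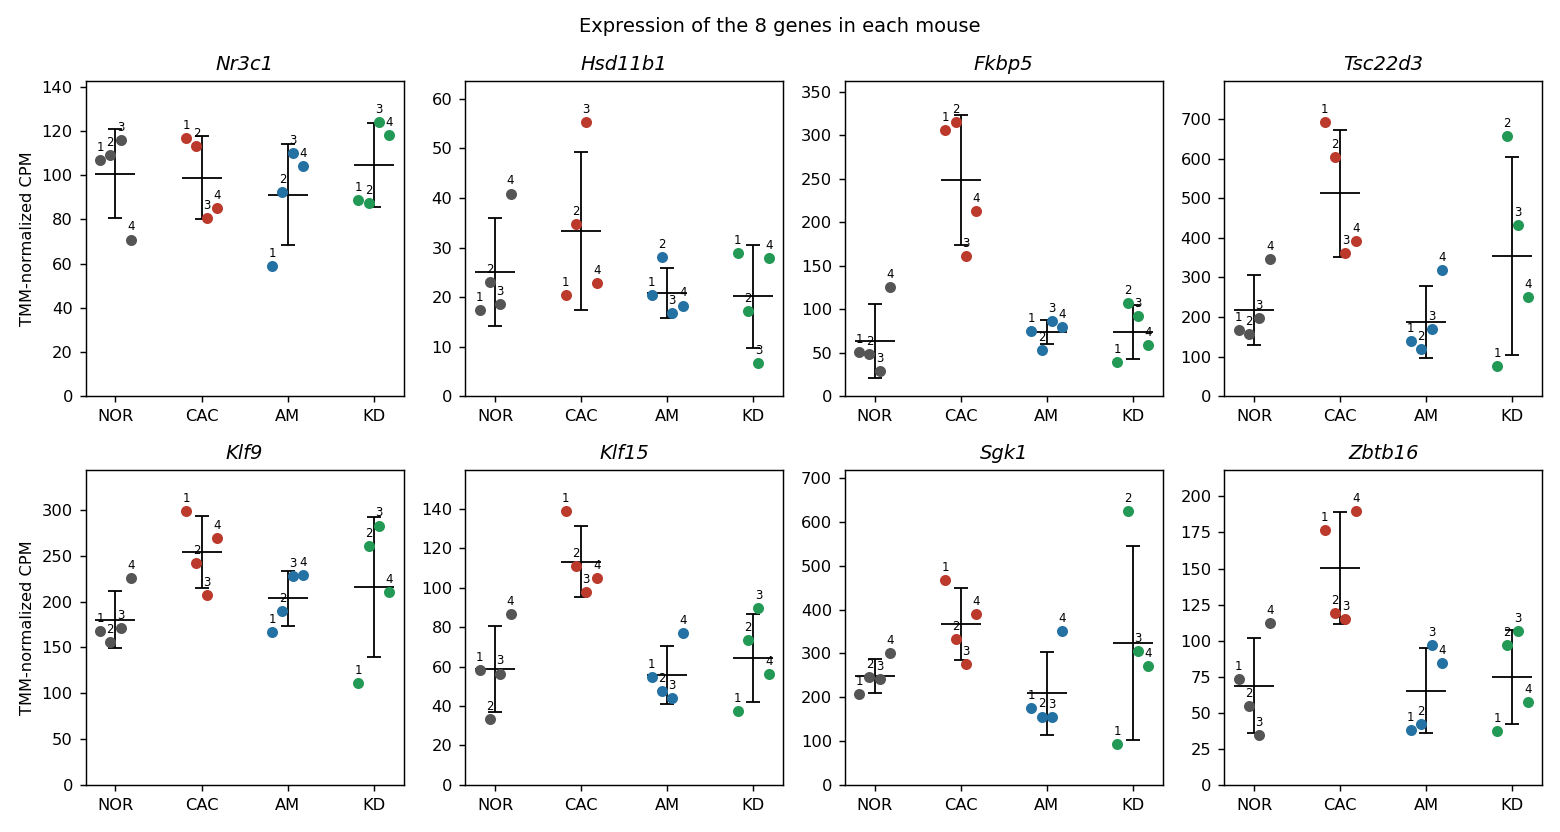
TMM-normalized CPM of the 8 genes in each mouse, with a panel per gene, the replicate number above each point, and the mean ± SD of each group as bar and whiskers. For Fkbp5, Tsc22d3, Klf15, and Zbtb16, all 4 CAC mice lay above all 4 NOR mice, whereas Nr3c1 overlapped in all groups.

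These calls depended on single mice. Without NOR replicate 1, 2, or 3, or without CAC replicate 1 or 2, none of the 8 genes was called (range over all left-out mice 0 to 5), while the calls over all genes in these fits were between 343 up and 385 down (without NOR replicate 3) and 596 up and 669 down (without CAC replicate 2). In all fits with a mouse left out, the FDR of Fkbp5 was between 0.00689 and 0.0717 and its log2 fold change between 1.72 and 2.51. Without NOR replicate 4, 5 genes were called (Fkbp5, Tsc22d3, Klf15, Klf9, and Zbtb16), beside 578 genes up and 636 down of all 14778. NOR replicate 4 was above the NOR mean for all 6 response genes (median ratio 1.54), and it also had 7630 CPM of summed adipocyte markers against 3400 to 3490 CPM in the other NOR mice. With the adipocyte markers as a covariate, Fkbp5 (2.00, edgeR FDR = 0.0235) and Tsc22d3 (1.23, edgeR FDR = 0.0412) were called and Klf15 was not (0.91, edgeR FDR = 0.0568). Car3 alone made up 1990 to 3880 CPM of these sums in NOR and CAC. Without Car3 in the sum, Fkbp5 and Tsc22d3 were again called and Klf15 was not (0.93, edgeR FDR = 0.0648), beside 593 genes up and 657 down. With the lymphocyte markers as a covariate the values were 1.96 for Fkbp5 (edgeR FDR = 0.0288), 1.25 for Tsc22d3 (edgeR FDR = 0.0389), and 0.90 for Klf15 (edgeR FDR = 0.0585). The part of neutrophils, fibroblasts, and endothelium was not tested. Under total-count scaling, which moved the median of all genes from 0.01 to 0.14, 6 of the 8 genes were called, and calls over all genes were 959 up and 619 down instead of 633 up and 753 down.

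The amiloride-treated muscle was next compared with the cachectic one (AM vs. CAC). Of the 8 genes, Fkbp5 and Klf15 were downregulated and none was upregulated, beside 2.03% of 14674 genes called down and 1.63% called up. All 8 genes had negative log2 fold changes, with a median of -0.91 against 0.01 for all genes. Calls over all genes were 239 up and 298 down, and under upper-quartile scaling 279 up and 232 down. The CAC mice are the same as in the previous comparison, so that a high CAC value enters both.

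Fkbp5 measured 75.2, 53.5, 86.8, and 79.6 CPM in AM, below every CAC mouse. It was downregulated by 1.75 on the log2 scale, to 0.298 of its CAC level (SE 0.239, edgeR FDR = 0.00956, exact permutation p = 0.0286). Klf15, with 54.6, 47.6, 44, and 77.1 CPM, was downregulated to 0.495 of its CAC level (log2 fold change -1.02, SE 0.194, edgeR FDR = 0.0254, exact permutation p = 0.0286). Neither gene overlapped between AM and CAC.

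Tsc22d3 had 140, 119, 169, and 319 CPM in AM, again with no overlap (log2 fold change -1.45, SE 0.348, edgeR FDR = 0.0524). Zbtb16 had 37.8, 42.3, 96.8, and 84.6 CPM, also below all CAC mice (-1.20, SE 0.327, edgeR FDR = 0.0753). Both missed the FDR limit, and both had the smallest exact permutation p of 0.0286. Tsc22d3 was called under total-count scaling (edgeR FDR = 0.0308), by limma-voom (adjusted p = 0.0413), and by DESeq2 (adjusted p = 0.000496), and Zbtb16 by DESeq2 (adjusted p = 0.00577). In all, 4 of the 8 genes were lower in AM without overlap, as were 9.27% of all genes tested.

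Sgk1 was uneven within AM, at 175, 156, 154, and 350 CPM. AM replicate 4 lay within the CAC range and the other 3 AM mice below the lowest NOR mouse. Its log2 fold change was -0.80 (SE 0.294, edgeR FDR = 0.158, exact permutation p = 0.0857). Klf9 measured 167, 190, 228, and 229 CPM (-0.31, SE 0.141, edgeR FDR = 0.241, exact permutation p = 0.114). Without AM replicate 4, 4 genes were called, namely Fkbp5, Klf15, Tsc22d3 (-1.84, edgeR FDR = 0.0311), and Sgk1 (-1.18, edgeR FDR = 0.0337), beside 68 genes up and 168 down of all 14863. With any 1 of AM replicates 1 to 3 or CAC replicates 1 and 2 left out, only Fkbp5 was called. The calls over all genes in these fits were between 61 up and 151 down (without CAC replicate 1) and 110 up and 197 down (without CAC replicate 2).

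When the 4 libraries that stand apart were left out, AM replicates 2 and 4 and CAC replicates 1 to 3 remained and no gene of the 8 was called, nor was any of all 14936 genes (0 up and 0 down). Fkbp5 then had a log2 fold change of -1.98 (edgeR FDR = 0.124) and Klf15 one of -0.91 (edgeR FDR = 0.204). Summed fibroblast markers were 1930 to 2630 CPM in AM, and 4 of 6 were above CAC without overlap (beside 6.05% of all genes), whereas the neutrophil sums overlapped (14.7 to 212 CPM) and 1 of the 6 neutrophil markers, Mmp8, was below CAC without overlap (0.515 to 5.31 CPM against 6.34 to 24.2 CPM). Of the 6 endothelial markers 2 were below CAC without overlap, and the sums overlapped (1310 to 1510 CPM in AM). Of all genes, 9.27% were lower in AM without overlap. AM replicate 1 also held hepatocyte markers (1930 CPM in sum, against 45.4 to 543 CPM in all other libraries). The sums of the other libraries were mostly Cyp2e1, which was 44.8 to 528 CPM there. Alb was at 1210 CPM in AM replicate 1 and at 0.0459 to 15.4 CPM in the other libraries. The part of these cells in the result was not tested. With the lymphocyte markers as a covariate, the log2 fold change of Klf15 was the same but its FDR was 0.0543 by edgeR, and Fkbp5 was called (-1.68, edgeR FDR = 0.0241).

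**Figure D3:**
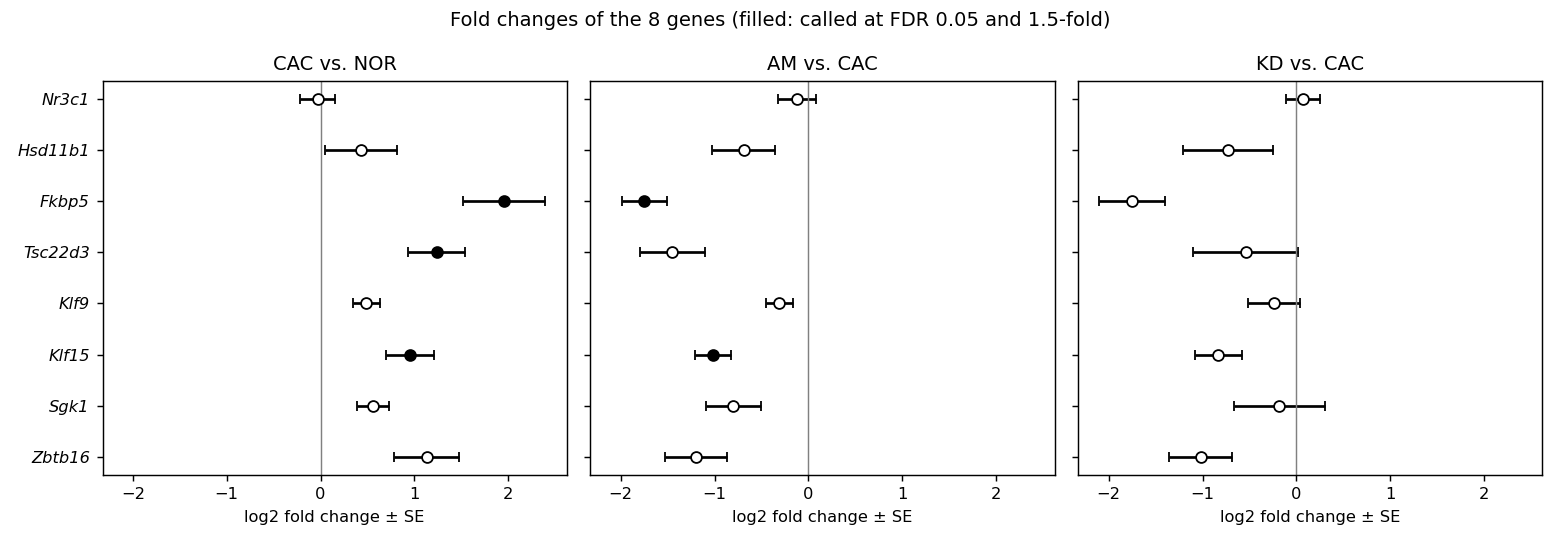
Log2 fold changes with SE of the 8 genes for CAC against NOR and for AM and KD against CAC (n = 4 mice per group), filled where the gene was called. In the first panel Fkbp5, Tsc22d3, and Klf15 are filled at 1.96, 1.24, and 0.95, in the second Fkbp5 and Klf15 at -1.75 and -1.02, and in the third none.

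Mice with Rab27 knock-down tumors were compared in the same way (KD vs. CAC). None of the 8 genes was called by edgeR, and of the 14593 genes tested 0% were called up and 0.00685% (1 gene) down. At an unadjusted p under 0.05, 3 of the 8 were lower, beside 5.09% of all genes, and DESeq2 called 1, Fkbp5, beside 0.737% of all genes called down and 1.7% called up. The median log2 fold change of the 8 genes was -0.63, against 0 for all genes.

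Fkbp5 measured 39.3, 107, 91.7, and 58.4 CPM in KD, below every CAC mouse (log2 fold change -1.75, SE 0.348, edgeR FDR = 0.231, DESeq2 adjusted p = 0.000214). Klf15 measured 37.5, 73.5, 89.5, and 56.3 CPM (-0.83, SE 0.252, edgeR FDR = 0.309), and Zbtb16 37.5, 96.7, 107, and 57.4 CPM (-1.02, SE 0.338, edgeR FDR = 0.341). These 3 genes did not overlap with CAC (exact permutation p = 0.0286 each), nor did 3.58% of all genes with KD lower.

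The other 3 response genes split within the KD group. Tsc22d3 had 75.1, 658, 432, and 250 CPM, so that KD replicates 2 and 3 were among the CAC mice and KD replicate 1 was the lowest of all 16 (-0.54, interval -1.81 to 0.74, edgeR FDR = 0.801). Sgk1 had 92.2, 625, 306, and 271 CPM, with the highest and the lowest level of all 16 mice in this group (-0.18, interval -1.28 to 0.92, edgeR FDR = 0.951). Klf9 had 111, 261, 283, and 210 CPM (-0.24, interval -0.87 to 0.39, edgeR FDR = 0.827). Without KD replicate 1 the log2 fold change of Sgk1 was 0.13, and without KD replicate 2 it was -0.73. That of Tsc22d3 was -0.20 and -1.04 in the same 2 fits. Klf9 ranged from -0.38 (without KD replicate 3) to -0.02 (without KD replicate 1). In KD vs. NOR, Tsc22d3 ranged from 0.21 (without KD replicate 2) to 1.04 (without KD replicate 1).

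Over the 6 response genes, KD replicates 2 and 3 were above the NOR mean for all 6, with a median ratio of 1.56 and 1.54. KD replicate 1 was below the NOR mean for all 6 (median ratio 0.581), and KD replicate 4 was near it (1.03). The same 2 mice, KD replicates 2 and 3, had the low lymphocyte sums given above, 963 and 737 CPM of fibroblast markers against 2910 and 3170 CPM in KD replicates 1 and 4, and 57.4 and 36.7 CPM of macrophage markers against 307 and 297 CPM. Against KD replicates 1 and 4 in this order, their neutrophil markers summed to 122 and 12.7 CPM (327 and 277 CPM), their muscle markers to 195000 and 196000 CPM (118000 and 147000 CPM), their endothelial markers to 1670 and 1520 CPM (1230 and 1040 CPM), and their adipocyte markers except Car3 to 947 and 883 CPM (3920 and 3400 CPM). KD replicate 1 is also one of the 4 libraries that stand apart. With the lymphocyte markers as a covariate, the log2 fold change in KD vs. CAC was -0.88 for Tsc22d3 (edgeR FDR = 0.444), -0.39 for Sgk1 (edgeR FDR = 0.68), and -0.32 for Klf9 (edgeR FDR = 0.495). In KD vs. NOR it moved Tsc22d3 from 0.70 to -0.03, Sgk1 from 0.38 to -0.13, and Zbtb16 from 0.12 to -0.27. With the adipocyte markers as a covariate, KD vs. CAC gave -0.27 for Tsc22d3 (edgeR FDR = 0.812), 0.05 for Sgk1 (edgeR FDR = 0.97), and -0.06 for Klf9 (edgeR FDR = 0.923). Without Car3 in the sum these were -0.86, -0.41, and -0.33 (edgeR FDR = 0.35, 0.675, and 0.488), and Fkbp5 was then called (-1.88, edgeR FDR = 0.0432). The part of fibroblasts, macrophages, neutrophils, muscle fibres, and endothelium in the split was not tested.

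**Figure D4:**
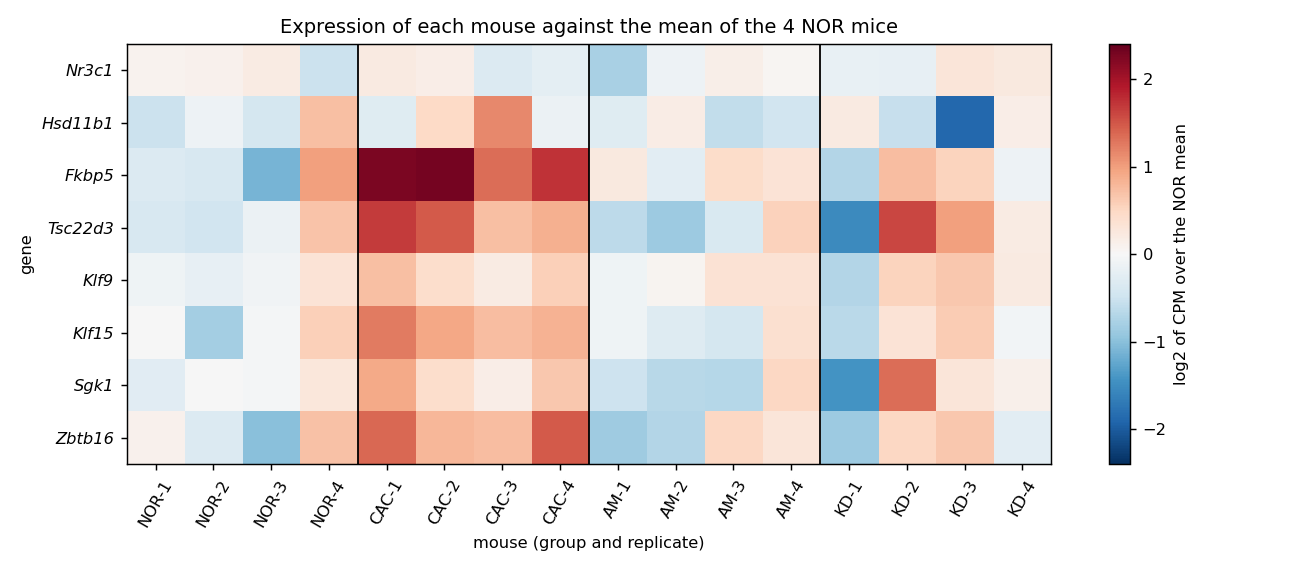
Each cell gives the log2 ratio of a mouse's CPM to the mean of the 4 NOR mice, with the 8 genes as rows and the 16 mice as columns. The 6 response genes were above the NOR mean in all 4 CAC mice and in NOR replicate 4, AM replicate 4, and KD replicates 2 and 3, and none of them was above it in KD replicate 1 and in NOR replicates 2 and 3.

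AM and KD were also set against NOR. None of the 8 genes was called in AM vs. NOR or in KD vs. NOR by edgeR, and 0% of all genes were called in either. None of the 8 passed an unadjusted p of 0.05, beside 9.19% and 3.54% of all genes, and DESeq2 was also without a call among the 8. Over all genes, DESeq2 called 50 up and 20 down of 14738 in AM vs. NOR, and 27 up and 4 down of 14748 in KD vs. NOR. The log2 fold change of Fkbp5 was 0.22 in AM vs. NOR (interval -0.69 to 1.13) and 0.21 in KD vs. NOR (interval -0.86 to 1.29). For Tsc22d3 the values were -0.21 (interval -1.01 to 0.59) and 0.70 (interval -0.60 to 2.01). For Fkbp5 and Tsc22d3 the intervals are too wide to tell a return to the NOR level from a remaining change of 1.5-fold. The interval of Klf9 stayed under 1.5-fold in AM vs. NOR (-0.15 to 0.51) but not in KD vs. NOR (-0.37 to 0.89).

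To compare levels between genes, FPKM values, which are per length, were used. In NOR, Tsc22d3 (142 ± 62.4 FPKM) and Sgk1 (142 ± 28.9) were highest and overlapped. They were followed by Klf9 (53.8 ± 10.9) and Nr3c1 (33.3 ± 6.62), each apart from its upper neighbor. Klf15, Fkbp5, Hsd11b1, and Zbtb16 followed from 25.9 to 17.5 FPKM, each overlapping with the next. In CAC, Fkbp5 stood in the third place (92.9 ± 19.1 FPKM), after Tsc22d3 (354 ± 78.2) and Sgk1 (224 ± 32.4), and the receptor in the place before the last (35.2 ± 3.57). Fkbp5 did not overlap with Sgk1 above it and overlapped with Klf9 below it, and the receptor overlapped with both of its neighbors. In AM, Fkbp5 was in the fifth place and in KD in the sixth, as in NOR, and in all 3 groups it overlapped with both neighbors.

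Across the 16 mice, the 6 response genes varied together, with Pearson's r of log2 CPM between 0.61 (Fkbp5 and Sgk1) and 0.93 (Tsc22d3 and Sgk1). Nr3c1 had r between -0.07 and 0.23 with them and Hsd11b1 between -0.26 and 0.22. These values describe 16 mice in 4 groups and share the same libraries and depth, and carry no test. Among 13202 further genes with a mean of at least 1 CPM, the genes most like each of the 8 were sought by the same measure. Klf15 was most like Ddit4 (r = 0.937), which encodes the mTORC1 inhibitor REDD1, and Abcg2 (0.915). Abcg2, a drug efflux transporter, was also among the nearest of Zbtb16 (0.91), after Tle1 (0.92). Fkbp5 was nearest to Myrip and to Pik3r1 (both 0.936), the latter a regulatory subunit of PI3 kinase, and Tsc22d3 to Fam107a (0.937) and Nrbp1 (0.931). Klf9 went with Kcna5 (0.911) and Ercc5 (0.907), and Sgk1 with Eif1ad (0.904) and Rbm42 (0.899). Nr3c1 was nearest to Scamp1 (0.866) and Kpna3 (0.846), and Hsd11b1 to Gm4951 (0.917) and Lyz1 (0.885), a lysozyme gene.

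Further genes of the pathway were taken from lists. Of 30 other genes known to be induced by glucocorticoids in muscle or elsewhere, 16 were upregulated in CAC vs. NOR and 1 was downregulated, beside 4.32% and 5.13% of all genes, with a median log2 fold change of 1.45. Several of them, such as the atrophy genes Fbxo32 and Trim63, also respond to other signals and were named by the study for these muscles, so that the list is not independent evidence. In AM vs. CAC, 13 of the 30 were downregulated and none was upregulated (beside 2.03% and 1.63% of all genes), with a median of -1.10. In KD vs. CAC none was called by edgeR (median -0.83), whereas 15 were lower at an unadjusted p under 0.05 (5.09% of all genes) and DESeq2 called 11 (0.737% of all genes down and 1.7% up).

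The 4 with the largest change in CAC were Mt2, Lcn2, Mt1, and Cdkn1a. Mt2, a metallothionein that binds zinc, rose from 5.28, 5.5, 8.05, and 21.2 CPM in NOR to 154, 150, 177, and 600 CPM in CAC (log2 fold change 4.76, SE 0.697, edgeR FDR = 0.00567). It fell to 16.6, 12, 32.5, and 19.5 CPM in AM (-3.74, SE 0.559, edgeR FDR = 0.012). Mt1, its neighbor whose promoter match is printed above, rose from 17, 18.9, 19.6, and 54.7 CPM to 192, 172, 244, and 1020 CPM (3.88, SE 0.726, edgeR FDR = 0.0129). CAC replicate 4, one of the 4 libraries that stand apart, was by far the highest for both.

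Lcn2, which encodes the iron-trafficking protein lipocalin 2 and is also abundant in neutrophils, rose from 0.699, 1.05, 2.14, and 4.52 CPM to 28.1, 14.4, 30.3, and 139 CPM (4.65, SE 0.895, edgeR FDR = 0.0141). In AM it was 23.3, 17.2, 26, and 2.3 CPM and was not called (-1.61, edgeR FDR = 0.318). AM replicate 4, the AM mouse with the lowest sum of neutrophil markers (14.7 CPM), also had the lowest Lcn2. Cdkn1a, which encodes the cell cycle inhibitor p21, rose from 15.6, 17.1, 10.9, and 13 CPM to 76.4, 47.5, 111, and 198 CPM (2.93, SE 0.423, edgeR FDR = 0.00543). In AM it was 38.6, 41, 24.1, and 52.5 CPM and was not called against CAC (-1.46, edgeR FDR = 0.0886). Its log2 fold change in AM vs. NOR was 1.47 (edgeR FDR = 0.504).

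Trim63, which encodes the ubiquitin ligase MuRF1 and holds the third promoter match, rose from 506, 325, 272, and 348 CPM to 2790, 1730, 1960, and 1810 CPM (2.50, SE 0.259, edgeR FDR = 0.00214). It fell in AM to 328, 299, 372, and 544 CPM (-2.42, SE 0.245, edgeR FDR = 0.00385). In KD it was 101, 1020, 372, and 305 CPM, with KD replicate 1 lowest and KD replicate 2 highest as for Sgk1 and Tsc22d3 (-2.21, SE 0.613, edgeR FDR = 0.277). The 1 gene of the list that was downregulated in CAC was Bcl6, a transcriptional repressor, from 111, 88.9, 117, and 96.9 CPM to 66.8, 65, 33.2, and 43.2 CPM (-1.0, SE 0.221, edgeR FDR = 0.0222). Trim63 and Bcl6 were named after their values were seen.

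**Figure D5:**
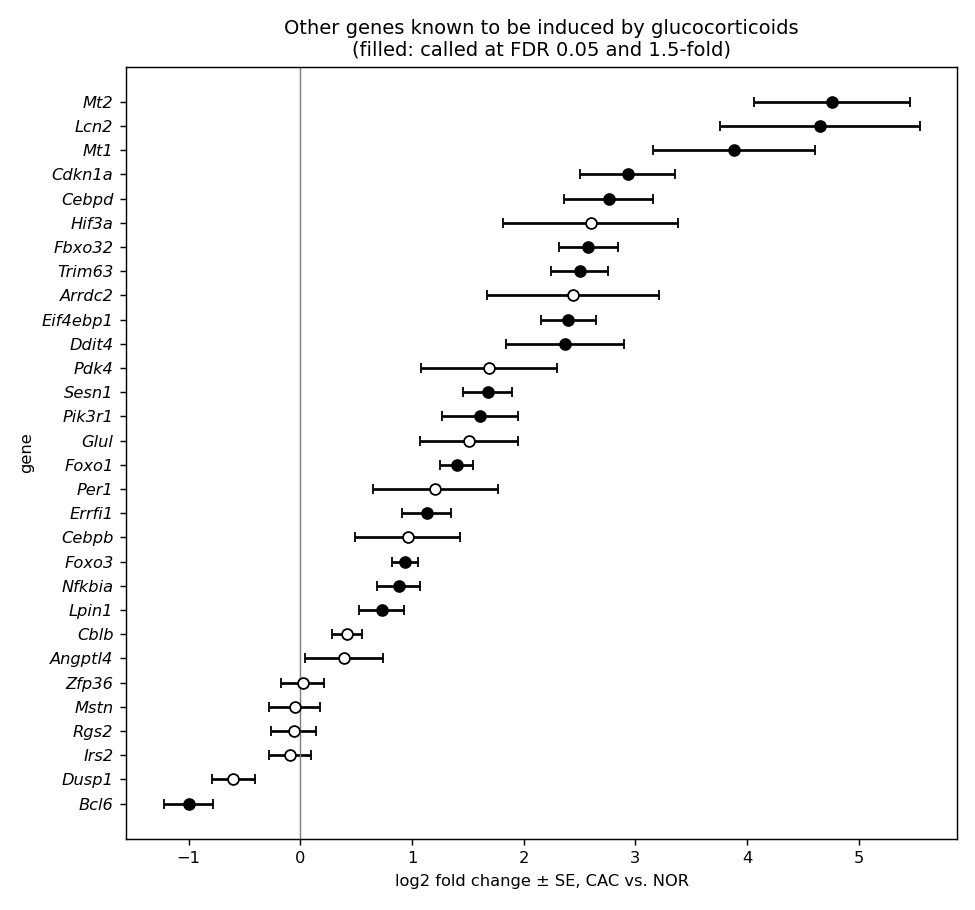
Log2 fold change with SE in CAC vs. NOR (n = 4 mice per group) of 30 other genes known to be induced by glucocorticoids, sorted by value and filled where called. Filled points are 16 to the right of 0, from Mt2 at 4.76 to Lpin1 at 0.73, and Bcl6 at -1.0 to the left.

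None of 20 genes for the handling of the hormone and the receptor (the mineralocorticoid receptor Nr3c2, hormone-converting enzymes, chaperones, and coregulators) was called by edgeR when CAC was compared with NOR, AM, or KD. DESeq2 called 2 in CAC vs. NOR (5.75% of all genes were called up and 7.41% down), 1 in AM vs. CAC (4.39% up and 3.28% down), and 0 in KD vs. CAC. In CAC vs. NOR, 2 were higher and 5 lower at an unadjusted p under 0.05 (15.5% and 13.6% of all genes), and 4 passed the FDR limit with a change under 1.5-fold (with no limit on the fold change, 7.79% of all genes passed it upward and 6.17% downward). These were Hsp90ab1 (0.46, edgeR FDR = 0.0361) and its co-chaperone Ptges3 (0.53, edgeR FDR = 0.0133), which were higher, and the chaperones Hspa8 (-0.52, edgeR FDR = 0.0294) and Stip1 (-0.55, edgeR FDR = 0.0133), which were lower. In AM vs. CAC, Hsp90ab1 (-0.54, edgeR FDR = 0.0287) and Ptges3 (-0.53, edgeR FDR = 0.0163) had the opposite sign (3.22% of all genes passed this limit downward and 1.76% upward). Hspa8 (-0.20, edgeR FDR = 0.691) and Stip1 (0.06, edgeR FDR = 0.831) did not pass the limit there. Their log2 fold changes in AM vs. NOR were -0.71 and -0.47 (edgeR FDR = 0.518 each). Hsp90ab1 measured 1110 to 1300 CPM in NOR, 1590 to 1750 CPM in CAC, and 1150 to 1190 CPM in AM. These 4 genes were named after their values were seen.

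For Klf15, 4 genes of amino acid breakdown known to be linked to it were examined, of which Tat was too low to be tested. Prodh, the proline dehydrogenase, measured 7.77, 12.8, 9.66, and 29.8 CPM in NOR and 28.3, 27, 35.2, and 32.9 CPM in CAC, and was not called (1.05, SE 0.383, edgeR FDR = 0.107). In AM it was downregulated to 17.7, 14.8, 15.5, and 11 CPM (-1.06, SE 0.17, edgeR FDR = 0.0151). The transaminases Bcat2 (0.05, edgeR FDR = 0.904) and Gpt (-0.51, edgeR FDR = 0.28) were not called in CAC vs. NOR.

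The difference between the labelled strains was tested as an interaction with the condition. None of the 8 genes passed edgeR's FDR limit for CAC vs. NOR, for AM vs. CAC, or for KD vs. CAC, nor did any other gene (0%), whereas 717, 1821, and 825 genes had an unadjusted p under 0.05. The same limit was passed by 1 of the 8 genes in the first comparison (Tsc22d3), by 4 in the second (Nr3c1, Fkbp5, Tsc22d3, and Zbtb16), and by 1 in the third (Nr3c1). Of the 8, Tsc22d3 had the smallest interaction FDR in CAC vs. NOR and in AM vs. CAC. Its mean log2 CPM differed between CAC and NOR by 2.00 in mice labelled C57BL/6 and by 0.52 in those labelled BALB/c (interaction 1.45, SE 0.371, edgeR FDR = 0.758). Between AM and CAC it differed by -2.32 and -0.70 (interaction -1.66, SE 0.427, edgeR FDR = 0.318). Nr3c1 had opposite signs by label, with -0.65 and 0.37 between AM and CAC (edgeR FDR = 0.337) and -0.38 and 0.55 between KD and CAC (edgeR FDR = 0.854). Since 4 libraries of both labels stand apart, these values describe the labels as deposited.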

How the data were processed

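Gastrocnemius RNA of 16 mice was enriched for poly(A) RNA and sequenced by the authors. The deposited table holds raw counts per gene, without normalization, and FPKM values that the authors made from these counts. The submitters' processing notes name fastp, Bowtie2, HISAT2, and StringTie 1.3.1 and the builds mm9 and GRCm38 without roles. The counting tool and the strandedness are not given in the sources used here, so that reads of overlapping antisense genes (at Hsd11b1 and Fkbp5) could not be told apart. Each column was assigned to a mouse through its name.

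From these counts, edgeR 4.0.16 in R 4.3.3 (TMM scaling, quasi-likelihood F test, filterByExpr at 10 counts and a total of 15) was fitted to the 8 libraries of each comparison. The study's NOISeq was not used here, and its fold change and FDR limits were kept. Within a group, libraries differed by at least 66.6 in chi-square per degree of freedom, which puts the spread between mice far above counting error. Alternatives were other scalings, DESeq2 1.42.0, limma-voom (limma 3.58.1), other filters, covariates, 1 fit over all 16 libraries, either labelled strain by itself, and leaving out each mouse. Lymphocyte and adipocyte covariates (the latter also without Car3) and leaving out 4 libraries were added after seeing the data. Log2 CPM used a prior count of 2, and FPKM only ranked genes per length. Intervals are 95%.

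Positions are from GENCODE M21 (GRCm38), which matched 21905 of 21923 identifiers, and promoters from RefSeq. At most 2.06% of the 31-base words of a followed gene (Fkbp5) occur in other genes. The 8 genes, the gene lists, and the rules were chosen with earlier results of these data known. Genes named are the 8, the 4 most changed called genes of each list in CAC vs. NOR, the 4 KLF15-linked genes, and the 2 most alike genes for each of the 8, and none of the receptor machinery was called there. Trim63, Bcl6, Fbxo32, Hsp90ab1, Ptges3, Hspa8, Stip1, Dnajb1, and Hsp90aa1 fall outside this rule and were named after their values were seen. The same holds for the marker genes Pecam1, Flt1, Kdr, Mmp8, Car3, Alb, and Cyp2e1 and for the genes Nnt, Oas1a, Lpin1, and Nr3c2.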

Additional observations from a re-analysis of the deposited data

Results flagged for a closer look

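Sgk1 in AM replicate 4 (350 CPM) lay far from the other 3 AM mice, whose highest value was 175 CPM. The gap was 0.893 of the range of the group, above Dixon's 95% critical value for 4 samples. It was the only one among 32 groups of 4 mice (8 genes in 4 groups), of which chance flags about 1 in 20. In the same mouse all 6 response genes were above the NOR mean (median ratio 1.29), and without it the log2 fold change of Sgk1 in AM vs. CAC was -1.18 (edgeR FDR = 0.0337) in place of -0.80 (edgeR FDR = 0.158).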

How the results depend on the processing

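Among the alternatives, the number of the 8 genes called in CAC vs. NOR (3) was 6 with total-count scaling, 1 with all 16 libraries in 1 fit, 0 in mice labelled BALB/c alone, and 0 to 5 when a mouse was left out. In AM vs. CAC (2) it was 4 with DESeq2, 1 with the labelled strain as a covariate, 1 with all 16 libraries, 0 in either labelled strain alone, 0 without the 4 libraries that stand apart, and 1 to 4 with a mouse left out. In KD vs. CAC (0) it was 1 with DESeq2 and 1 with adipocyte markers except Car3 as a covariate (of all genes, 0 up and 2 down). Tsc22d3 gained a call in AM vs. CAC in 5 alternatives. Of all genes, 0 were called as well in CAC vs. NOR for mice labelled BALB/c and in AM vs. CAC for either labelled strain and without the 4 libraries. For the other response genes, CAC vs. NOR (17) gave 0 in mice labelled BALB/c alone and 11 to 20 with a mouse left out (11 without NOR replicate 3), AM vs. CAC (13) gave 7 with all 16 libraries, 0 in either labelled strain alone, 0 without the 4 libraries, and 10 to 12 with a mouse left out, and KD vs. CAC (0) gave 11 with DESeq2 (all genes 237 up and 103 down) and 5 with all 16 libraries (90 up and 55 down). For the receptor machinery, CAC vs. NOR (0) gave 1 with upper-quartile scaling, 2 with total-count scaling, 2 with DESeq2, 1 with all 16 libraries, and 0 to 1 with a mouse left out, and AM vs. CAC (0) gave 2 with total-count scaling, 1 with DESeq2, and 0 to 1 with a mouse left out. Klf15 lost its call in CAC vs. NOR in 16 of 24 alternatives, Tsc22d3 in 8, and Fkbp5 in 6, and in AM vs. CAC Klf15 lost it in 12 and Fkbp5 in 4. Fewer mice enter the split and left-out fits, and the causes of these differences were not tested.

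The replicate numbers did not pair the mice, since only 6 of 24 same-number pairs had a correlation of deviations over 0.1 (range -0.635 to 0.599) and 0 of 16 libraries correlated best with their own number. With the replicate number as a block, CAC vs. NOR had 2 calls among the 8 genes (Fkbp5 and Zbtb16) and 19 among the other response genes, whereas neither AM nor KD had any against CAC (0 of the 8 genes and 0 of the other response genes). Over all genes the block gave 533 up and 607 down in CAC vs. NOR and 0 in AM vs. CAC and KD vs. CAC.

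Signs turned for some uncalled values. In CAC vs. NOR, Nr3c1 (-0.03) was 0.08 with total-count scaling, 0.10 in mice labelled C57BL/6, 0.12 with adipocyte markers (0.14 without Car3), 0.04 without the 4 libraries, and -0.18 to 0.06 with a mouse left out. In AM vs. CAC, Nr3c1 was 0.34 in mice labelled BALB/c and -0.21 to 0.04 with a mouse left out. In KD vs. CAC, Nr3c1 was -0.03 with total-count scaling, -0.36 in mice labelled C57BL/6, and -0.01 to 0.16 with a mouse left out. There Klf9 was 0.03 in mice labelled BALB/c and 0.02 without the 4 libraries, and Sgk1 was 0.17 without the 4 libraries, 0.05 with adipocyte markers, and -0.73 to 0.13 with a mouse left out. In AM vs. NOR, mice labelled C57BL/6 gave 0.27 for Hsd11b1 and 0.16 for Klf15, those labelled BALB/c gave 0.19 for Nr3c1 and 0.31 for Zbtb16, and leaving out the 4 libraries gave 0.09 for Klf15, 0.03 for Sgk1, and 0.02 for Tsc22d3. Adipocyte markers except Car3 gave 0 for Nr3c1. With a mouse left out, the ranges there were -0.28 to 0.02 for Nr3c1, -0.44 to 0.09 for Hsd11b1, -0.02 to 0.78 for Fkbp5, -0.59 to 0.10 for Tsc22d3, -0.26 to 0.18 for Klf15, and -0.32 to 0.27 for Zbtb16. In KD vs. NOR, lymphocyte markers as a covariate gave -0.08 for Fkbp5, -0.13 for Klf15, -0.13 for Sgk1, -0.03 for Tsc22d3, and -0.27 for Zbtb16, mice labelled BALB/c gave -0.06 for Fkbp5, and those labelled C57BL/6 gave 0.19 for Hsd11b1 and -0.29 for Nr3c1. With a mouse left out, the ranges there were -0.08 to 0.13 for Nr3c1, -0.53 to 0.04 for Hsd11b1, -0.03 to 0.78 for Fkbp5, -0.07 to 0.38 for Klf15, -0.16 to 0.69 for Sgk1, and -0.10 to 0.46 for Zbtb16.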

Other observations

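Of the genes that hold and refold the receptor, 2 heat shock genes differed within NOR, and they were named after their values were seen. Dnajb1, which encodes an HSP40 co-chaperone, measured 13.5, 24.9, 205, and 201 CPM in NOR replicates 1 to 4 and 17.1 to 30.4 CPM in the 12 mice of the other groups. Hsp90aa1, which encodes the inducible HSP90, measured 44.8, 80.6, 301, and 310 CPM in NOR and 44.7 to 88.8 CPM in the other groups. The 2 high mice are the NOR mice labelled BALB/c. Neither gene was called by edgeR in CAC vs. NOR, with log2 fold changes of -2.32 (SE 0.805, edgeR FDR = 0.0927) and -1.34 (SE 0.577, edgeR FDR = 0.164).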
